A study of Caenorhabditis elegans with 2 samples.

Results

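Peak calls for a tagged BTB domain protein at X chromosome promoters of Caenorhabditis elegans larvae are described here. A promoter call is a peak call of the pooled relaxed list whose summit lay within 1000 bp of the transcription start site (TSS) of a protein-coding transcript. The authors deposited that list as peaks and background, the input of a later reproducibility analysis. It holds background by design, so a call in it is not by itself evidence of binding. Calls with a summit within 200 bp of a tRNA, snoRNA or snRNA gene were left out. Of the 30000 calls in the pooled list, 5332 lay on X and 2058 of those were within 1000 bp of a TSS. Leaving out 74 at small RNA genes gave 1984 X promoter calls. The same rule gave 11803 autosomal promoter calls, which served for comparison, and 3106 X calls lay away from both promoters and small RNA genes. The X promoter calls overlapped in places, and merging them left 1653 regions.

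The data are chromatin immunoprecipitation followed by sequencing (ChIP-seq) of whole hermaphrodites of strain OP529, with the genotype unc-119(tm4063) III; wgIs529. The integrated transgene produced F10B5.3, also named btbz-2, with green fluorescent protein (GFP) and FLAG fused to its C terminus, and an antibody against GFP was used. The promoter that drove it is not given in the sources used here. Worms were L4 larvae, taken 48 hours after starved L1 larvae had been synchronized. There were 2 biological replicates of this 1 group, each worm carried both the transgene and the unc-119 allele, and no other genotype, stage or antibody was present for comparison. Whole worms mix all tissues, so a call that is strong in few cells and a call that is weak in many cannot be told apart. Read depth is unknown, since the deposited lists hold no read counts. The relaxed lists held 22211 calls in replicate 1 and 27642 in replicate 2, of which 1541 and 1799 were X promoter calls by the same rule. Signal values are those deposited for the calls, on a scale that was not stated, and they are compared only within a list. The 862 calls kept by the authors' irreproducible discovery rate (IDR) analysis are called the IDR set. They were exactly the 862 pooled calls of highest signal, so membership and signal are the same information.

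In hermaphrodites of this species both X chromosomes are bound by a dosage compensation complex related to condensin, which lowers X transcription. The complex is loaded at recruitment sites that carry a short GC-rich motif, MEX, and it then spreads to promoters of active genes. Many worm mRNAs receive a spliced leader in place of their own first bases, so an annotated 5′ end can lie downstream of the place where transcription starts. BTB domains are protein interaction domains, found in many zinc finger proteins and in adaptors of ubiquitin ligases.

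The windows of 101 bases around the summits of the 6 highest X promoter calls are printed to show what lay under the strongest signals. All are given 5′ to 3′ on the plus strand of ce11, read from the RefSeq genome, and each is named by the gene of its nearest TSS. Capitals mark the MEX core GCGCAGGG or its reverse complement with at most 1 mismatch, and the word TGCGTC or its reverse complement. The word TGCGTC was picked after these windows had been read.
nspc-17, X:14525865-14525965: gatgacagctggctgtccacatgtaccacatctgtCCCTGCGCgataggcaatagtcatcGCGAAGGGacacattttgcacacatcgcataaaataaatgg
ins-39, X:1345006-1345106: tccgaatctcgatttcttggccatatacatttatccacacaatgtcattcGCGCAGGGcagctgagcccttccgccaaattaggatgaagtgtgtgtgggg
serp-1.1, X:15841226-15841326: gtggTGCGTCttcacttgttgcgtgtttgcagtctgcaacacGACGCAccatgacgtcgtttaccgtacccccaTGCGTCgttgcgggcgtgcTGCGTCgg
F55G7.1, X:11924299-11924399: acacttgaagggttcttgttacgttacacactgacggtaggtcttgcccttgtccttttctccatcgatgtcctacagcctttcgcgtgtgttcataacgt
hst-2, X:11207114-11207214: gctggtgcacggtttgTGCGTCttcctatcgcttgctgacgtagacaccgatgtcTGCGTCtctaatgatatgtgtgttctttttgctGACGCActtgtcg
hsp-3, X:6092131-6092231: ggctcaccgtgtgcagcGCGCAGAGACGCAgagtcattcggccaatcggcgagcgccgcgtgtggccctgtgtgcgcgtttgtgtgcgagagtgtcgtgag

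The 2 strongest windows held an exact MEX core. The next ones held TGCGTC, together with a MEX copy with 1 mismatch at hsp-3, or neither word. The window at nspc-17 had an exact MEX core on the minus strand, starting 15 bp to the left of the summit. It also had a copy on the plus strand, starting 10 bp to the right, with the substitution C4A, counting positions from 1 at the 5′ end of the word and giving the base of the word first. The window at ins-39 had an exact core that began at the summit. The window at hsp-3 had a copy with G7A, which overlapped a TGCGTC word on the other strand, so its capitals run together. TGCGTC occurred 4 times at serp-1.1 and 3 times at hst-2. The window at F55G7.1 held neither word.

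The strongest X promoter call lay upstream of nspc-17, a member of a nematode-specific peptide family whose 18 genes all lie on X. The call spanned X:14525560-14526215 with its summit 734 bp upstream of the TSS, and its signal was 961 in the pooled list. Replicate 1 gave it a signal of 370 and replicate 2 one of 596. The second was at X:1344857-1345246, 635 bp upstream of the insulin-like gene ins-39, at a pooled signal of 696. Its replicate signals were 259 and 438. These calls ranked 2 and 13 among all nuclear calls and stood apart from the other X promoter calls. The third was at X:15841127-15841433, 296 bp upstream of serp-1.1, with a pooled signal of 367 and replicate signals of 165 and 202. Only these 3 of the 1984 X promoter calls had a signal over 300. So did 25 of 11803 autosomal promoter calls and 18 of 3106 X calls away from promoters. At a signal of at least 314.386 the shares were 0.151%, 0.169% and 0.580%, in the same order.

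Among the 20 highest X promoter calls, genes of several cell functions were represented. hsp-3 encodes a chaperone of the endoplasmic reticulum, and its call had a pooled signal of 239 with its summit 57 bp upstream. The call at trap-2, a subunit of the translocon-associated protein complex, had a signal of 160 and was the only one of the 20 near the TSS of a second gene, ile-2, a lectin of the secretory pathway. hst-2 encodes a heparan sulfate sulfotransferase, and its summit was 9 bp upstream with a signal of 244. sec-3, an exocyst subunit, had 165 and epn-1, an endocytic adaptor of the epsin family, had 168. In gene regulation, bet-2 encodes a bromodomain protein and its call had a signal of 221. spat-3, a RING protein related to Polycomb group proteins, had 179. ain-1, a protein of the microRNA effector complex, had 215, and puf-9, an RNA-binding protein of the Pumilio family, had 167. ftt-2, a 14-3-3 protein, had 187, zfp-3, a zinc finger protein, had 156, and the ribosomal protein gene rpl-11.2 had 156. The other calls of the 20 lay at F55G7.1 (254), pkhm-2 (221), T04G9.6 (202), C14A11.9 (183) and the F-box gene fbxb-58 (164). The call at fbxb-58 spans X:1626904-1627388 and contains the summit, at 1627129, of a stronger X call of 639 that the distance limit leaves out.

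All of these 20 calls had summits upstream of the nearest TSS and outside protein-coding genes. Replicate 1 had a summit within 100 bp of all 20, and replicate 2 of 18. The exceptions were ain-1 and epn-1. A narrower ain-1 call, which lies wholly inside the first with its summit 771 bp upstream, had a pooled signal of 127 and was found in both replicates, at 33.7 in replicate 1 and 121 in replicate 2. Windows at spat-3 and fbxb-58 held a 31-base word that occurs elsewhere in the genome. Reads that lie wholly inside such copies cannot be told apart by sequence, and how the authors placed them is not given in the sources used here.

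**Figure D1:**
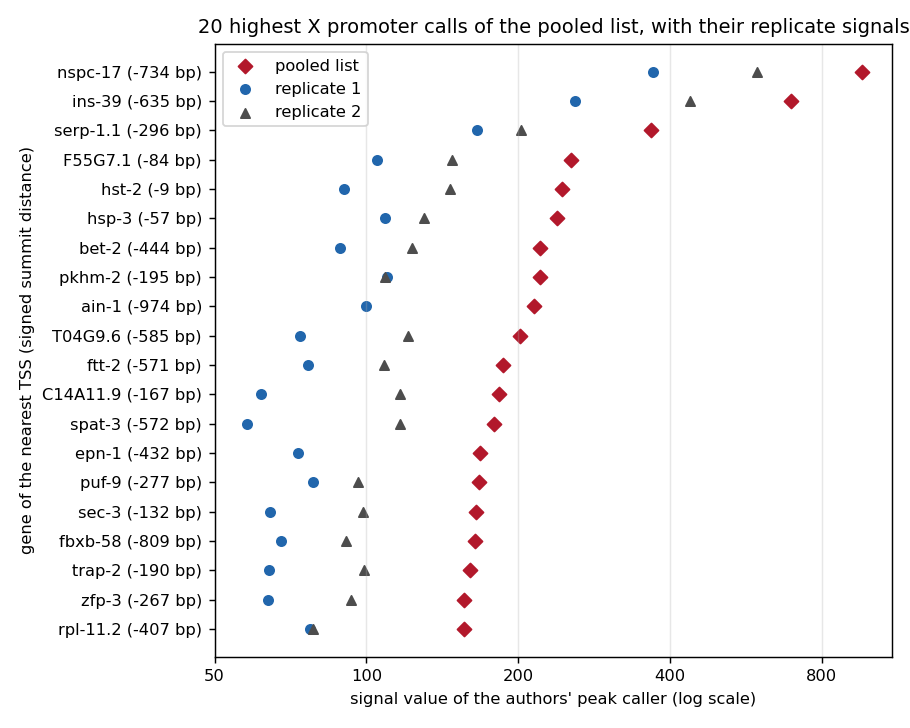
Signal value of the authors' peak caller (log axis) for the 20 highest X promoter calls of the pooled list, one line per call, with the gene of the nearest TSS and the signed summit distance. Red diamonds are pooled signals, blue circles replicate 1 and grey triangles replicate 2. The calls at nspc-17 and ins-39 lie to the right of the rest, and ain-1 and epn-1 have no replicate 2 point because no summit lay within 100 bp.

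The replicates shared few of the weak calls and most of the strong ones. Of the 1984 X promoter calls, 445 (22.4%) had a summit within 100 bp in both replicate lists, against 22.4% of the autosomal promoter calls. A further 404 (20.4%) had one in neither list. Among X promoter calls of the IDR set, 62 of 67 (92.5%, 95% Wilson interval 83.7 to 96.8) were found in both lists, against 19.98% of the other X promoter calls (18.3 to 21.8). The IDR set was chosen from these same lists, so this describes the choice and is no independent check. Across the 445 calls found in both lists, log10 signals of the replicates correlated with Pearson's r = 0.735 and Spearman's rho = 0.543, and with r = 0.698 without the calls at nspc-17 and ins-39. These calls share libraries and neighbouring positions.

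In the IDR set the X promoter calls numbered 67, which is 3.38% of them, against 351 autosomal promoter calls, which is 2.97%. The difference was 0.403 percentage points (95% Newcombe interval −0.376 to 1.34), so none was detectable between all promoter calls of X and of the autosomes. All intervals cover counting error over calls only. Calls are not replicates, and neighbouring calls can share reads. Of X calls away from promoters 2.45% were in the set, and the difference from X promoter calls was 0.930 points (−0.0019 to 1.94). At the lower end of the set, the last X promoter call inside it lay at dpy-23, an adaptor protein gene of endocytosis, with a signal of 86.5171. The next one, outside it, lay at twf-2, a twinfilin gene, with 86.3545.

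The signal of X promoter calls was close to that of autosomal ones, but most calls of both groups lay outside the IDR set and can be background. Those outside numbered 1917 of 1984 on X and 11452 of 11803 on autosomes. The median signal was 28.7 for X promoter calls (95% order-statistic interval 28.0 to 29.2) and 28.2 for autosomal promoter calls (27.9 to 28.4). A call near these medians, at vit-2 (29.4), had a deposited −log10 q-value of 0.159. The median of X over that of autosomes was 1.018 in the pooled list, 1.018 in replicate 1 and 1.002 in replicate 2. With 2 replicates an exact two-sided sign test cannot give a p below 0.5, so no p is attached to this ratio. The 5 autosomes had medians between 27.8 and 28.6. The 99th percentile was 153 on X and 150 on autosomes. The highest promoter call had a signal of 961 on X and 769 on an autosome.

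**Figure D2:**
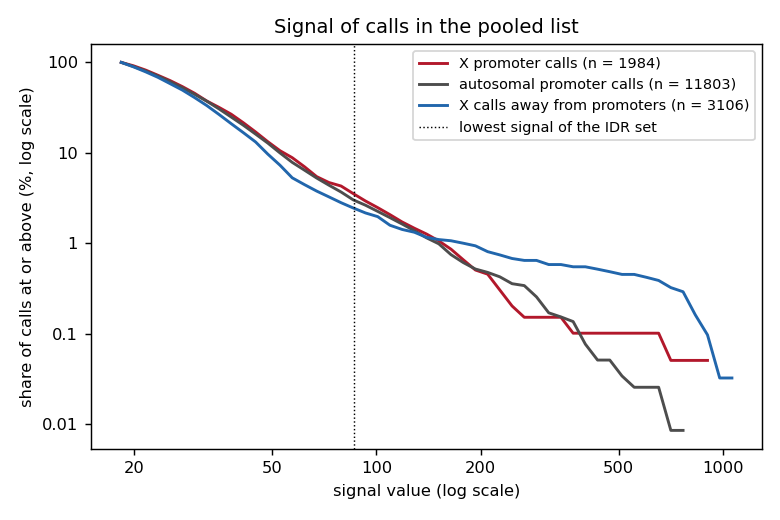
Share of calls (log axis, %) at or above each signal value (log axis) for X promoter calls in red, autosomal promoter calls in grey and X calls away from promoters in blue, with the lowest signal of the IDR set as a dotted line. The 2 promoter curves run close together over most of the range, and the X curve ends at the last plotted level below 961, the signal of the call at nspc-17.

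Promoters made up a smaller share of the calls on X than on autosomes. Leaving out calls at small RNA genes, 38.98% of X calls (1984 of 5090) were promoter calls, against 48.9% of autosomal calls (11803 of 24136), a difference of −9.92 points (95% Newcombe interval −11.4 to −8.44). Within the IDR set the shares were 46.9% on X (67 of 143) and 73.7% on autosomes (351 of 476), a difference of −26.9 points (−35.7 to −17.7). Protein-coding TSSs were also sparser on X, where 34.8% of positions lay within 1000 bp of one, against 42.5% on autosomes. Counted over genes, 1248 of 2731 X protein-coding genes (45.7%) had a promoter call and 67 (2.45%) had one in the IDR set. On autosomes 46.8% of 17242 genes had a promoter call and 2.84% had one in the IDR set.

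X promoter calls, strong or weak, mostly lay at the promoter of a single gene. Over all promoter calls, 6.15% on X and 16.9% on autosomes were within 1000 bp of the TSSs of more than 1 gene. Of the 67 X promoter calls in the IDR set, 4 (5.97%) were of this kind, close to the 6.16% of the other X promoter calls, against 146 of 351 (41.6%) on autosomes, a difference of −35.6 points (95% Newcombe interval −42.0 to −25.8). Summits between 2 divergent TSSs, with a gene on the minus strand to the left and one on the plus strand to the right, made up 4.48% of X calls in the IDR set (3 of 67) and 32.2% of autosomal ones (113 of 351). These 3 calls lay at trap-2 and ile-2, at glit-1 and dnj-14, and at Y34B4A.7 and mtm-5. Divergent promoters are scarcer on X, where 1.61% of the positions within 1000 bp of a TSS lie between such TSSs, against 4.62% on autosomes. Over all promoter calls the shares were 1.86% on X and 6.91% on autosomes.

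Being near the TSSs of more than 1 gene went with IDR membership on autosomes but not measurably on X. The odds ratio, for IDR calls over other calls, was 0.968 on X (95% interval 0.346 to 2.70) and 3.69 on autosomes (2.97 to 4.59). X over autosomes gave 0.262 (0.0916 to 0.749). For divergent TSSs the odds ratio was 2.60 on X (0.777 to 8.68) and 7.27 on autosomes (5.74 to 9.21), and X over autosomes gave 0.357 with an interval that held 1 (0.104 to 1.22). The intervals are normal intervals on the log scale, taken over calls.

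Once promoters of more than 1 gene were set aside, X promoter calls were in the IDR set more often than autosomal ones. Of calls near the TSS of 1 gene, 63 of 1862 (3.38%) on X and 2.09% on autosomes were in the set, a difference of 1.29 points (95% Newcombe interval 0.503 to 2.25). Each autosome had a lower share than X, from 1.65% on V to 2.52% on II, though the Wilson interval of X (2.65 to 4.31) overlapped that of every autosome except IV and V. Replicate 1 alone, with its 862 highest calls in place of the IDR set, gave 4.62% on X and 2.99% on autosomes (difference 1.63, 0.579 to 2.89). Replicate 2 gave 3.81% on X and 2.31% on autosomes (1.501, 0.621 to 2.57). With summits also outside genes and upstream, the shares were 7.98% on X and 5.18% on autosomes (2.79, 0.728 to 5.26). Single-gene calls with summits inside a gene gave 0.767% on X (9 of 1174) and 0.999% on autosomes (71 of 7110). That difference was −0.232 points (−0.678 to 0.482), so no X excess was detectable for summits inside genes. Calls near the TSSs of more than 1 gene gave 3.28% on X and 7.31% on autosomes (−4.03, −6.37 to 0.931). The comparison within single-gene promoters was chosen after the shares of divergent promoters had been seen.

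**Figure D3:**
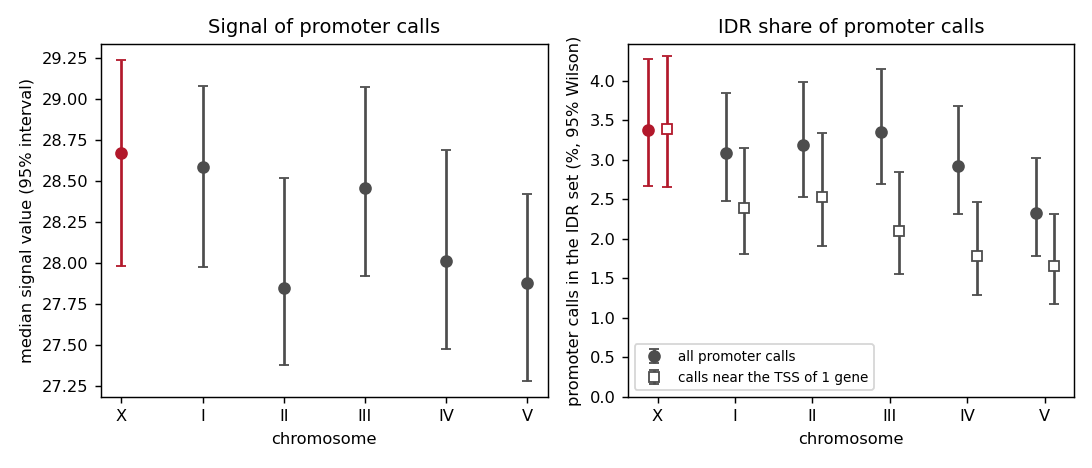
Left, median signal of promoter calls on each chromosome with 95% order-statistic intervals (the axis does not start at 0). Right, share of promoter calls in the IDR set (%) with 95% Wilson intervals, as filled circles for all promoter calls and open squares for calls near the TSS of 1 gene, with X in red and autosomes in grey. The circles of X and autosomes lie between 2.32% and 3.38%, while the square of X, at 3.38%, lies above those of all 5 autosomes.

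X promoter calls of the IDR set lay upstream of their TSS. Upstream summits made up 59 of 67 (88.1%, 95% Wilson interval 78.2 to 93.8), against 50.4% of the other X promoter calls, a difference of 37.6 points (95% Newcombe interval 27.5 to 43.8). Taking the 862 highest calls of a replicate in place of the IDR set gave 78.6% against 51.3% in replicate 1, and 89.7% against 51.1% in replicate 2. The median signed distance was −215 bp in the IDR set and −7 bp in the other X promoter calls, where a negative distance is upstream. Autosomal promoter calls showed the same pattern, with 82.1% upstream in the IDR set, and the difference of X from autosomes there was 6.01 points (−4.54 to 13.2). The 8 X calls of the set with downstream summits lay at pdi-6, lite-1, M02D8.7, act-4, C25A11.2, tsp-21, C45B2.8 and M02D8.2. The summits at C45B2.8 and M02D8.2 lay past the 3′ ends of those genes. They count among the summits outside protein-coding genes given below.

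Over all promoter calls, X had more upstream summits than the autosomes, with 51.7% against 46.8%, a difference of 4.95 points (95% Newcombe interval 2.57 to 7.32). The 5 autosomes lay between 46.1% and 47.5%. The positions available differed as well, since 48.8% of those within 1000 bp of a TSS were upstream on X, against 46.0% on autosomes. In the IDR set 11 X calls (16.4%) had summits 600 to 800 bp upstream, nspc-17 and ins-39 among them, against 5.41% of the autosomal calls. This bin was picked after its values were seen, and the difference was not tested. In it, the X calls at ftt-2, spat-3 and ain-1 each overlapped a stronger call of the set at the same gene. Merging overlapping X promoter calls of the set left 64 regions. Summits 0 to 400 bp upstream made up 55.2% on X and 63.8% on autosomes.

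**Figure D4:**
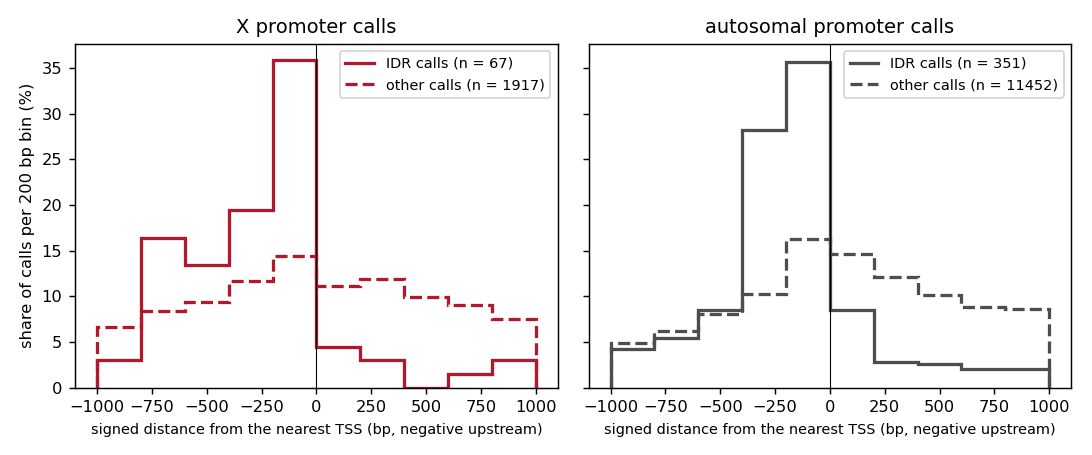
Share of promoter calls (%) per 200 bp bin of the signed distance between summit and nearest TSS, with X promoter calls on the left in red and autosomal ones on the right in grey. Solid lines are calls of the IDR set and dashed lines are the others. Both solid lines peak in the bin just upstream of the TSS, at 35.8% on X and 35.6% on autosomes.

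The distance limit of 1000 bp passes close to some strong X calls. Between 900 and 1000 bp from a TSS there were 144 X promoter calls with a median signal of 29.5, and 3 of them were in the IDR set, at M02D8.2 (86.7), ain-1 (215) and M02D8.7 (126). Between 1000 and 1100 bp there were 158 X calls with a median of 26.8, and 4 were in the IDR set. These lay at fbxb-58 (639), T27A8.7 (765), T24D8.6 (246) and Y62H9A.9 (92.8), so 2 of them were stronger than all X promoter calls except nspc-17 and, for fbxb-58, ins-39 as well.

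Strong X promoter calls lay mostly between genes. Summits outside protein-coding genes made up 86.6% of X promoter calls in the IDR set (58 of 67), 35.5% of the other X promoter calls and 71.8% of autosomal promoter calls in the set. The difference of X from autosomes within the set was 14.8 points (95% Newcombe interval 3.67 to 22.7). Among positions within 1000 bp of a TSS, 36.8% were intergenic on X, against 30.6% on autosomes. No X call of the set had its summit in a coding exon, where 0 of 67 allows a share of up to 4.48% by 3 counts of the total and has an upper Wilson limit of 5.42%. The share was 6.84% on autosomes (95% Wilson interval 4.64 to 9.97) and 21.9% of the other X promoter calls. The Wilson intervals of X and autosomes overlapped. The difference of X from autosomes within the set was −6.84 points, and its 95% Newcombe interval (−9.97 to −0.986) left out 0. Introns held 5 of the 67, 5′ UTRs 3 and 3′ UTRs 1.

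A larger share of X than of autosomal promoter calls lay near genes annotated as ncRNA without a further class. A summit within 200 bp of such a gene was found for 9.53% of X promoter calls (189) and 3.86% of autosomal ones. The share of positions near such genes was not computed for X or autosomes. The part of annotation density in this difference was therefore not tested. In the IDR set the shares were 20.9% on X (14 of 67, 95% Wilson interval 12.9 to 32.1) and 15.4% on autosomes (11.99 to 19.5), with overlapping intervals. The calls at ftt-2, spat-3, rpl-11.2 and dpy-23 in the set were of this kind. lincRNA genes lay near 2 of the 67 calls (2.99%), against 9 of all 1984 X promoter calls (0.454%) and 2 of 351 autosomal calls in the set (0.570%).

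The base composition under strong calls differed from that under weak ones. The median GC content of the 101 bases around the summit was 52.5% for X promoter calls in the IDR set (95% order-statistic interval 49.5 to 54.5) and 37.6% for the other X promoter calls. It was 48.5% for autosomal promoter calls in the set (47.5 to 49.5), so the intervals of X and autosomes meet. The part of base composition in the shares of words given next was not tested.

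The MEX core GCGCAGGG, searched on both strands within 50 bp of the summit, was rare at X promoters. It was found in 7 of 1984 X promoter calls (0.353%), in 6 of 11803 autosomal ones (0.0508%) and in 15 of 3106 X calls away from promoters (0.483%). Windows of the same length around all 4114 X TSS positions held it 3 times (0.0729%). In the IDR set it was found at 2 of 67 X promoter calls (2.99%, 95% Wilson interval 0.822 to 10.2), at 0 of 351 autosomal ones, which allows up to 0.855% by 3 counts of the total and 1.08% as the upper Wilson limit, and at 12 of 76 X calls away from promoters (15.8%, 9.27 to 25.6). With at most 1 mismatch the counts were 8 of 67 (11.9%), 30 of 351 (8.55%) and 31 of 76 (40.8%). For comparison, a match with at most 1 mismatch was found at 2.87% of X promoter calls outside the set and 2.46% of all autosomal promoter calls. It was found at 3.25% of all X calls away from promoters and in 1.58% of X TSS windows. The other 5 X promoter calls with an exact core lay outside the set. They were at svh-5 (65.1), R09A8.2 (58.5), F52G3.8 (39.8), H11E01.3 (24.5) and daf-12 (22.4), the last a nuclear receptor gene of developmental timing. Signals of the 7 calls with an exact core ranged from 22.4 to 961.

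TGCGTC was found at 14 of 67 X promoter calls in the IDR set (20.9%, 95% Wilson interval 12.9 to 32.1), against 3.76% of the other X promoter calls. It was found at 18.2% of autosomal promoter calls in the set and in 2.75% of the X TSS windows. The longer CTGCGTCT, which contains it, was found at 8 of the 67 (11.9%), at 0.939% of the other X promoter calls and at 6.55% of autosomal calls in the set. Since the word was chosen from the windows of X calls in this set, the X share describes the choice.

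Of 5 words rich in A and T, 4 were less frequent under the strong X calls than under the weak ones. TTTTTTTT and TTTTCAG, a splice acceptor, were each found at 0 of 67 X promoter calls in the IDR set, which allows up to 4.48% by 3 counts of the total and 5.42% as the upper Wilson limit, against 9.96% and 6.78% of the other X promoter calls. TATAAA was found at 4.48%, against 14.03% of the others, and AAATTT at 4.48%, against 16.01%. For each of these 4 words the 95% Wilson intervals of both shares did not overlap. The fifth, AGATAA, was found at 5.97% of X calls in the set, against 6.05% of the other X calls, and in 6.49% of X TSS windows. On autosomes the shares in the set were also below those of all autosomal promoter calls. They were 3.42% against 10.1% for TTTTTTTT, 4.56% against 9.93% for TTTTCAG, 6.55% against 13.1% for TATAAA and 13.1% against 21.8% for AAATTT. In X TSS windows the first 4 words had shares of 10.1%, 20.005%, 13.4% and 16.2% in the order given. Of the remaining words, GAGAGAGA was found at 4.48% of X calls in the set, against 1.62% of the other X calls, and in 0.656% of X TSS windows, and CACGTG at 2.99%, against 1.62%, and in 1.02%. All words were searched on both strands.

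**Figure D5:**
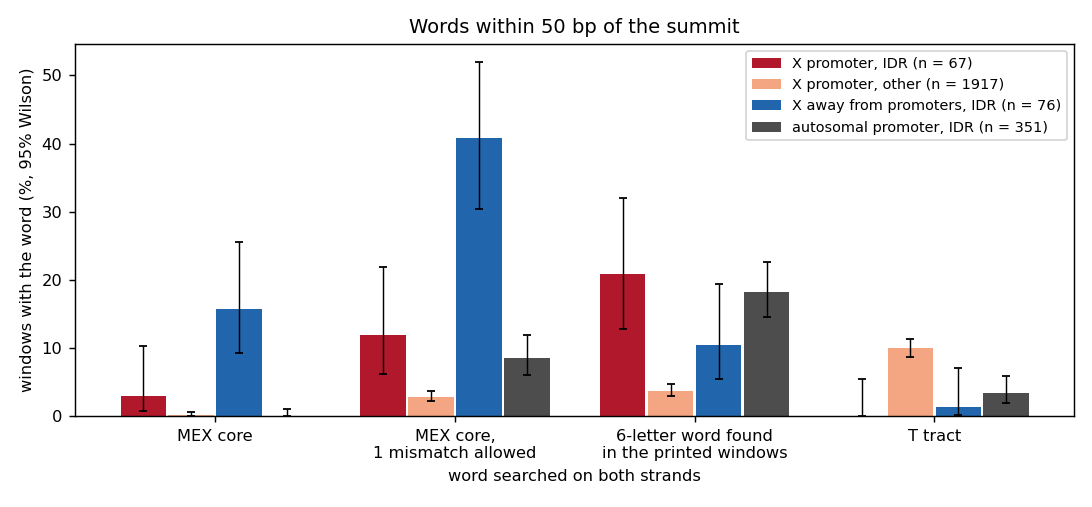
Share of windows within 50 bp of the summit (%) that held each of 4 words, with 95% Wilson intervals, for X promoter calls of the IDR set (red), other X promoter calls (light red), X calls of the set away from promoters (blue) and autosomal promoter calls of the set (grey). The MEX core with 1 mismatch allowed reached 40.8% in X calls away from promoters and 11.9% in X promoter calls, and the bar of the T tract is at 0 in X promoter calls of the set.

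Gene groups differed in how many of their X members had a promoter call, to be read against the 45.7% of all X genes with any call and the 2.45% with one in the IDR set. Most calls counted for the groups lay outside the set and can be background, so the counts are not counts of bound genes. Calls outside the set that are named for these groups had −log10 q-values from 0.118 at rpl-25.1 to 2.76 between ucr-2.1 and nmat-1. Sex determination and dosage compensation genes had a call at 5 of 6, and the one in the set lay at sdc-2, the hermaphrodite-specific factor that brings the dosage compensation complex to X, 459 bp upstream with a signal of 102. Heterochronic genes and microRNA cofactors also had 5 of 6, with ain-1 in the set. Of 5 chaperone genes 4 had a call, and hsp-3 and dnj-14 (102, nearer to glit-1) were in the set. Of 6 genes of the respiratory chain and ATP synthase 5 had a call, with ucr-2.2, a subunit of complex III, in the set at 120 and a call of 85.8 just outside it between ucr-2.1 and nmat-1, whose TSS was the nearer. Muscle structure genes had 9 of 12, and the call in the set lay 9 bp downstream of the TSS of the actin gene act-4, at 104. Both X ribosomal protein genes had a call, at 156 for rpl-11.2 and 26.8 for rpl-25.1.

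In larger X families the counts in the set were 0 to 2 genes each, and no test was run against the 2.45% of all X genes. Collagen genes had a call at 21 of 31 (67.7%), and none was in the set. The highest was at col-184 with 79.1, its summit in a coding exon 512 bp downstream of the TSS. Nuclear hormone receptor genes had 15 of 27, with nhr-1 (111) and nhr-48 (95.8) in the set. Homeobox genes had 13 of 25 and neuropeptide genes 13 of 33, none in the set, with the highest calls at ceh-39 (42.1) and nlp-76 (73.6). Ligand-gated channel and acetylcholine receptor subunit genes had 7 of 29, with acr-12 highest at 57.4. Potassium and gap junction channel genes had 4 of 26, with inx-3 highest at 46.0. Chemoreceptor genes had 9 of 34, with srv-7 highest at 40.6. None of these 3 groups had a call in the set.

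Smaller and clustered families varied too. The nspc family had a call at 5 of 18 genes, and after nspc-17 the next highest was nspc-7 at 62.5. The summit at nspc-7 lay 701 bp downstream of the TSS, past the 3′ end of the gene. F-box genes had 4 of 17, with only fbxb-58 in the set. Of the 2 insulin-like peptide genes on X, ins-39 had a call. Vitellogenin genes, which encode yolk proteins, had 1 of 5, at vit-2 with 29.4. Ubiquitin and proteasome genes had 2 of 7, with skr-21 highest at 31.6, its summit also past the 3′ end of the gene. Wnt, Notch and vulval signalling genes had 4 of 10, with sem-5 highest at 49.03. UDP-glucuronosyltransferase and cytochrome P450 genes had 6 of 11, with ugt-50 highest at 38.8, and the 3 X genes of C-type lectins had none. Near-identical copies can share reads within the nspc, F-box and vitellogenin families, so single members there are uncertain. Within 50 bp of the summit, the calls at nspc-17, nspc-7 and vit-2 held no 31-base word that occurs elsewhere. The call at fbxb-58 did.

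Promoter calls were spread over the whole of X. In 6 segments of equal length there were between 65.9 and 81.4 promoter calls per 100 protein-coding genes. The share in the IDR set was between 2.39% and 4.33%, with 8 to 13 calls each, and the median signal was between 28.0 and 29.2.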

How the data were processed

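ChIP-seq peak lists of 2 biological replicates were used in the ce11 build. Per the deposited notes, the authors called peaks in each replicate and in the pooled alignments against a control alignment, and IDR analysis then gave the thresholded set. Neither aligner nor peak caller, nor any version or IDR threshold, is given in the sources used here. Each deposited signal value is the peak caller's own value. The deposited −log10 q-value was at the same ceiling, 3.24, for all 67 X promoter calls of the IDR set and did not order them. The ce10 lists were not used.

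Summits were compared with Ensembl release 115 genes on WBcel235, the same assembly as ce11, whose chromosome lengths held all calls. All TSSs of protein-coding transcripts counted. A call was in the IDR set if the deposited set held it, and found in a replicate if a summit of that list lay within 100 bp. Shares carry 95% Wilson intervals, differences Newcombe intervals, medians order-statistic intervals and odds ratios normal intervals on the log scale. None measures the spread between cultures. Position references were sampled every 10 bp. Computation used Python 3.11.15, numpy 2.4.6, pandas 2.3.3 and scipy 1.17.1, and the functions were tested on simulated data.

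Genes were named by a rule: the 20 highest X promoter calls, the 2 highest of each of 21 gene lists, of which the text gives those in the IDR set or else the highest, and the calls next to its lower end. Genes named elsewhere, such as those with downstream summits, between divergent TSSs, with the MEX core or near the distance limit, were chosen after their values were seen. Members, lists and 8 words were chosen with earlier results of these data known, and 2 words and the single-gene and divergent comparisons after seeing these values. The pattern for potassium and gap junction channels was corrected because it had also matched other unc genes. Alternatives changed the TSS distance, small RNA rule, TSS set, overlap, replicate list, shared distance and repeated words.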

Additional observations from a re-analysis of the deposited data

How the results depend on the processing

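Of 88 alternative values over 9 results, 77 counted as unchanged: differences kept their direction and their side of 0, ratios moved by less than the spread between replicates, and counts stayed within 1.5 times. The number of X promoter calls was 1177 at a TSS distance of 500 bp and 3217 at 2000 bp, and 1541 and 1799 in the list of 1 replicate. The ratio of median signals, X over autosomes, was 1.018. It was 0.990 at 500 bp and 1.002 without repeated 31-base words, and 1.002 without replicate 1 and 1.018 without replicate 2. The difference in the IDR share was 1.29 points for calls near the TSS of 1 gene, where its interval left out 0. The difference in the share found in both replicates, 0.0368 points, was −1.26 at 500 bp, −0.0270 with small RNA genes within 1000 bp left out, −0.161 with 1 TSS per gene, −0.632 with summits shared within 50 bp and −0.502 without repeated words, and each interval held 0. The cause of these changes was not tested. The difference in the IDR share at single-gene promoters lay between 0.767 and 1.75 points, that in divergent promoters within the set between −37.9 and −24.0, and that in upstream summits of X calls, IDR minus other, between 25.7 and 39.9. The settings for repeated words and single-gene promoters, and all alternatives of the last 3 results, were chosen after seeing the data. Single-gene and divergent shares were not run at 2000 bp. No paired analysis was possible because the series has 1 group. Depth is unknown, so a promoter without a call is not shown to be unbound. The pooled list holds background, so a promoter with a call outside the IDR set is not shown to be bound.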
